A study of Mus musculus with 8 samples.

Results

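The regions described here are the m6A peaks of Wtap-HKO mouse liver that were new within genes already carrying a peak in control liver. They were chosen by peak calls in 2 lists, one for each genotype. A Wtap-HKO peak was taken as new when its gene was also in the control list (a retained gene) but its exonic blocks shared 0 bases, on the same chromosome and strand, with any control peak. This gave 3479 new peaks of 19185 Wtap-HKO peaks (18.1%, 95% interval 17.6 to 18.7). They were 21.9% (21.3 to 22.6) of the 15882 Wtap-HKO peaks that lay in the 8096 retained genes, and the other 12403 peaks of these genes overlapped a control peak. Some regions were listed under several genes, on the same or the opposite strand, and each entry was counted. Merging overlapping Wtap-HKO entries of the same strand left 3419 new peaks (22.0%).

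m6A RNA immunoprecipitation sequencing was performed on poly(A)+ RNA from livers of C57BL/6 mice (C57BL/6J in the study's methods) that were 8 weeks old and fed normal chow. Control mice were Wtap flox/flox, which carry the floxed Wtap alleles without Cre. Wtap-HKO mice were Wtap flox/flox with Alb-Cre, which is driven by the albumin promoter, so Wtap was deleted in hepatocytes and the other cells of the liver kept it. Each genotype had 2 IP and 2 input libraries (8 in all), and each replicate was pooled from several mice. The lists combine the replicates, so every value below is 1 value per genotype without a replicate error, no difference between genotypes could be tested across replicates, and intervals cover counting error only. Sequencing depth is unknown because the lists give no reads.

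m6A is a methylated adenosine of mRNA. It is written co-transcriptionally by METTL3 and METTL14, and WTAP is the regulatory subunit that holds this pair in nuclear speckles together with VIRMA, ZC3H13, RBM15 and CBLL1. In mammalian mRNA most m6A lies in DRACH sequences with GGAC at their core, close to the stop codon and in long internal exons. A second methylated adenosine, m6Am, stands next to the cap, is written by PCIF1 and is also bound by antibodies against m6A.

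More new peaks lay in the first 10% of the gene span than in any other 10%. The first 50 bases of 8 genes with a new peak at the start are printed from the RefSeq start (GRCm38.p6), 5′ to 3′, to show the sequence that these peaks covered. They are 8 of the new peaks at a gene start with low false discovery rates that covered at least 10 of these bases. Hint1 and Id1, whose new peaks began at the annotated gene start, are not printed. Their log10 false discovery rates (-164 and -127) were lower than those of Glul (-113), Rgs5 (-92.9) and Htatip2 (-92.2). Capitals mark the bases inside the new peak.
Phlda3: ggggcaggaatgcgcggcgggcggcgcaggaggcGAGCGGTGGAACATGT
Bdh1: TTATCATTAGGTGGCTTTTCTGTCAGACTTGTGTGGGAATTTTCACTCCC
Os9: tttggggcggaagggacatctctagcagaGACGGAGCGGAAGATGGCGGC
Nhp2: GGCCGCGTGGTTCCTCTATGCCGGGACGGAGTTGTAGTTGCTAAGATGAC
Umps: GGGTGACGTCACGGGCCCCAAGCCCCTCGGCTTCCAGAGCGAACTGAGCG
Glul: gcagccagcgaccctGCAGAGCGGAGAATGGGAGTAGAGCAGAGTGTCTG
Rgs5: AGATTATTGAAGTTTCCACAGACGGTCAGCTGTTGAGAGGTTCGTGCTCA
Htatip2: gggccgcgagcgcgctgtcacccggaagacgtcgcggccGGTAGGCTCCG
Phlda3 (chr1:135766085-135766134, plus strand) is a p53 target that represses Akt, and 16 of its first 50 bases lay in the peak. In Bdh1 (chr16:31422297-31422346, plus strand), the mitochondrial dehydrogenase of ketone bodies, all 50 did. Os9 (chr10:127121111-127121160, minus strand), a lectin of endoplasmic reticulum-associated degradation, had 21 bases inside. Nhp2 (chr11:51619773-51619822, plus strand), a protein of H/ACA small nucleolar ribonucleoproteins, and Umps (chr16:33966989-33967038, minus strand), which makes UMP in pyrimidine synthesis, were covered over all 50. Glul (chr1:153899929-153899978, plus strand) is glutamine synthetase and had 35 bases inside. Rgs5 (chr1:169655501-169655550, plus strand), a regulator of G protein signalling, was covered over all 50, and Htatip2 (chr7:49759106-49759155, plus strand) over 11. GGAC occurred 1 time each in the sequences of Os9, outside the new peak, and Nhp2, inside it, and in none of the other 6. GGAC is only part of DRACH, which needs A, C or T as its last letter, and the GGAC of Nhp2 is followed by G. Other forms of DRACH lay inside new peaks, with GAACA in Phlda3, AGACT in Bdh1 and GAACT in Umps.

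New peaks lay at the 5′ ends of genes more often than the overlapping peaks of the same list and more often than the control peaks that were lost. Of 3232 new peaks that could be placed on a RefSeq gene span (92.9%), 921 had their upstream edge within 200 nt of the 5′ end (28.5%, 27.0 to 30.1). The share was 13.2% (12.6 to 13.9) for 11192 overlapping Wtap-HKO peaks. It was 3.75% (2.97 to 4.73) for 1812 control peaks of retained genes that shared 0 bases with the Wtap-HKO list, a class that made up 13.9% of the control peaks of these genes (2019 of 14535). New peaks exceeded overlapping peaks by 15.3 percentage points (Newcombe interval 13.6 to 17.0) and lost peaks by 24.7 (22.9 to 26.5). The 921 peaks came from 915 genes, and 162 new peaks had their upstream edge within 10 nt of the annotated gene start. At the 3′ end the order was turned around. There the window of 200 nt held 3.62% (3.03 to 4.32) of new peaks, 9.74% of overlapping peaks and 9.82% of lost peaks.

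Along the whole gene, the midpoint fell into the first 10% of the span for 41.2% of new peaks (1333), against 15.9% of overlapping and 8.39% of lost peaks. The last 10% held 20.9% of new peaks (676), 41.1% of overlapping peaks and 47.6% of lost peaks. A new peak could lie only where no control peak lay, and of all 13098 placed control peaks of retained genes 42.0% were in the last 10% and 15.2% in the first 10%. How far this limit sets the position of new peaks was not tested. Introns count in these spans, and liver isoforms were not considered.

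**Figure D1:**
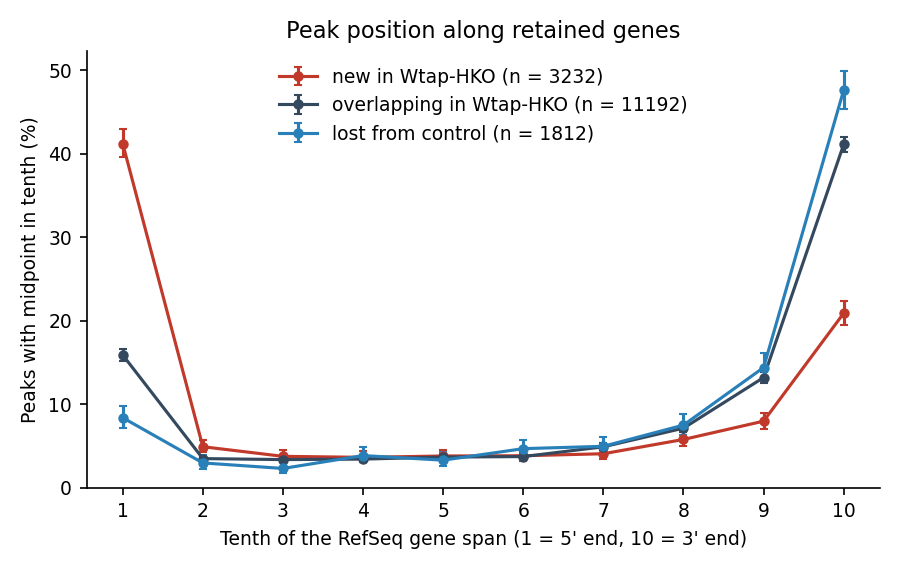
Share of peaks (y axis, percent) with the midpoint in each of 10 equal parts of the RefSeq gene span (x axis, 1 is the 5′ end), for new Wtap-HKO peaks (red), Wtap-HKO peaks that overlap a control peak (dark) and control peaks lost from the Wtap-HKO list (blue) of retained genes. Bars are 95% Wilson intervals, and new peaks stood at 41.2% in the first 10% and 20.9% in the last.

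Within single genes the new peaks lay mostly upstream of the control peaks. The midpoint of 2323 new peaks was 5′ of every control peak of the gene (66.8%, 65.2 to 68.3), that of 471 was between control peaks (13.5%) and that of 685 was 3′ of all (19.7%). Lost control peaks, measured against the Wtap-HKO peaks of their gene, had 22.1% 5′ of all, 23.3% between and 54.6% 3′ of all. In genes with exactly 1 control peak, 76.7% (74.7 to 78.6, 1371 of 1788) of new peaks were upstream of it. The matching share for lost peaks of genes with 1 Wtap-HKO peak was 27.5% (24.7 to 30.5, 253 of 919). Among new peaks outside the 200 nt window, 54.8% (52.8 to 56.8, 1267 of 2311) were 5′ of all control peaks and 26.2% were 3′ of all. New peaks could lie only where no control peak lay, and how far this limit sets their order was not tested.

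**Figure D2:**
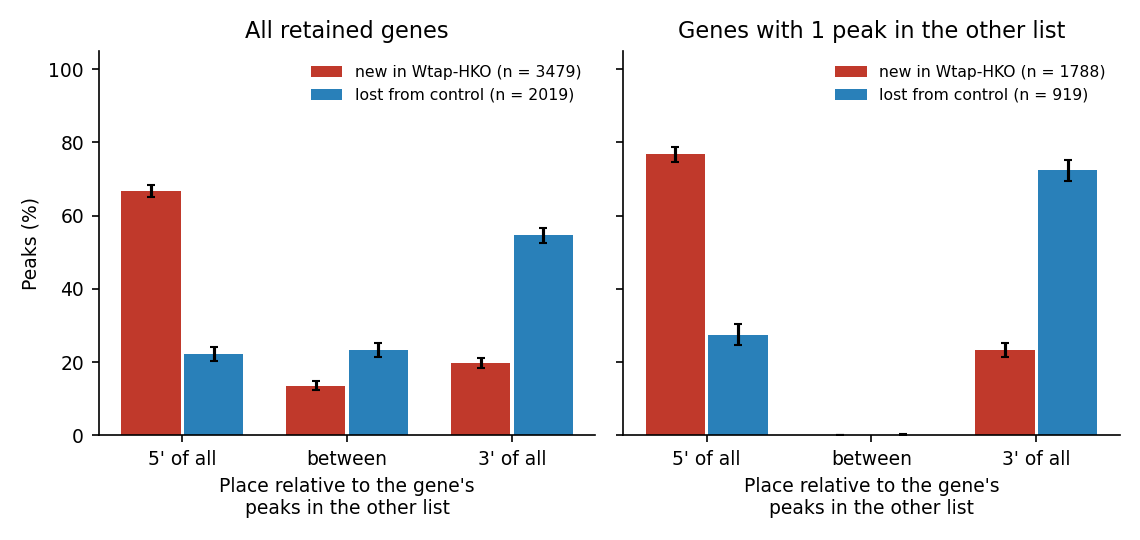
Place of new Wtap-HKO peaks relative to the control peaks of the gene (red) and of lost control peaks relative to the Wtap-HKO peaks of the gene (blue), as a share of peaks (y axis, percent, bars from 0 with 95% Wilson intervals). The left panel shows all retained genes and the right panel genes with 1 peak in the other list, where new peaks were upstream in 76.7% and lost peaks in 27.5%.

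In 250 genes with a new peak, every control peak was lost. These genes held 288 new peaks, of which 85.8% (81.3 to 89.3) lay 5′ of all the control peaks and 43.3% (37.3 to 49.4, 109 of 252 placed) within 200 nt of the 5′ end. In the 2390 genes that kept a control peak the shares were 65.1% (63.4 to 66.7) and 27.2% (25.7 to 28.9). Umps had 2 control peaks of up to 3.28-fold enrichment (IP over input), the nearest 4727 nt downstream, and a single Wtap-HKO peak of 8.64-fold at its start. Nhp2 had a control peak of 3.62-fold and a Wtap-HKO peak of 9.16-fold whose edge lay 38 nt upstream of the annotated start. Slc27a4, a fatty acid transport protein, lost 2 control peaks of up to 2.23-fold and had 1 new peak of 9.53-fold at its 5′ end. Herpud1, a stress-induced protein of the endoplasmic reticulum, lost a control peak of 3.02-fold and had a new one of 6.69-fold 39 nt from its start. Lost control peaks occurred in 24.1% (22.5 to 25.8, 636 of 2640) of genes with a new peak and in 18.9% (17.9 to 19.9, 1030 of 5456) of retained genes without one.

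The new peaks were spread over 2640 genes (32.6% of retained genes). A single new peak occurred in 2075 genes, 2 in 414, 3 in 94 and 4 or more in 57, with 9 as the highest number. The share of retained genes with a new peak was 33.4% (32.0 to 34.9) for genes with 1 control peak, 29.4% (27.6 to 31.3) with 2, 34.1% (31.7 to 36.6) with 3 to 5 and 51.0% (41.3 to 60.7, 50 of 98) with 6 or more. On the 20 chromosomes with at least 100 peaks, between 17.7% (chromosome 12) and 25.2% (chromosome 1) of the Wtap-HKO peaks of retained genes were new.

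The median distance from a new peak to the nearest control block on the strand was 3758 nt (interquartile range 567 to 17889.5, introns included). A control block lay within 200 nt of 303 new peaks (8.71%) and within 1000 nt of 1146 (32.9%). The new peak closest to the limit was in AC175538.1, 8 nt from a control block, with 3.9-fold enrichment. Anapc2 (3.75-fold) and Gtpbp6 (3.03-fold) followed at 28 nt. Just outside the limit, peaks of Mfsd6 (2.71-fold), Flvcr1 (5.57-fold) and Naif1 (3.25-fold) shared 1 base with a control peak. At most 10 bases were shared by 54 overlapping peaks.

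Fold enrichment of IP over input and the false discovery rate come from the calls that chose the peaks, so they are given as a description. The median was 5.32-fold for new peaks (quartiles 3.41 and 9.94, range 1.22 to 148), 5.84-fold for overlapping peaks (quartiles 3.61 and 10.3) and 3.51-fold for lost peaks. The median log10 false discovery rate, which is more negative for a firmer call, was -9.73 for new, -39.2 for overlapping and -9.22 for lost peaks. New and lost peaks had a median exonic length of 180 nt and overlapping peaks of 300 nt. Blocks in more than 1 exon occurred in 22.0% (20.6 to 23.4) of new, 18.6% (17.9 to 19.3) of overlapping and 6.79% (5.77 to 7.97) of lost peaks. Within 200 nt of the 5′ end the share was lower for new peaks, at 28.1% (25.3 to 31.1), than for overlapping peaks, at 45.5% (43.0 to 48.0). Elsewhere it was 20.2% (18.6 to 21.8) and 15.1% (14.4 to 15.8).

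New peaks at the 5′ end and new peaks elsewhere differed in strength. At the 5′ end the median was 5.67-fold (5.39 to 5.94) with a log10 false discovery rate of -15.1. Elsewhere it was 5.12-fold (4.88 to 5.32) with -8.54. The share of peaks of 20-fold or more ran the other way, with 6.41% (5.0 to 8.18) at the 5′ end and 12.8% (11.5 to 14.2) elsewhere. Overlapping peaks differed in the same directions. At the 5′ end they had a median of 7.19-fold and a log10 false discovery rate of -70.7, and elsewhere 5.58-fold and -36.3. Of overlapping peaks, 7.77% (6.51 to 9.25) at the 5′ end and 10.1% (9.54 to 10.7) elsewhere had 20-fold or more. Within genes that also had an overlapping Wtap-HKO peak, a new peak reached a median of 0.550 times the highest overlapping peak (3190 peaks), and 0.841 times when it lay at the 5′ end (811 peaks). Taking the highest where a gene had several overlapping peaks lowers these ratios, so they do not show how a new peak compares with a typical overlapping one.

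**Figure D3:**
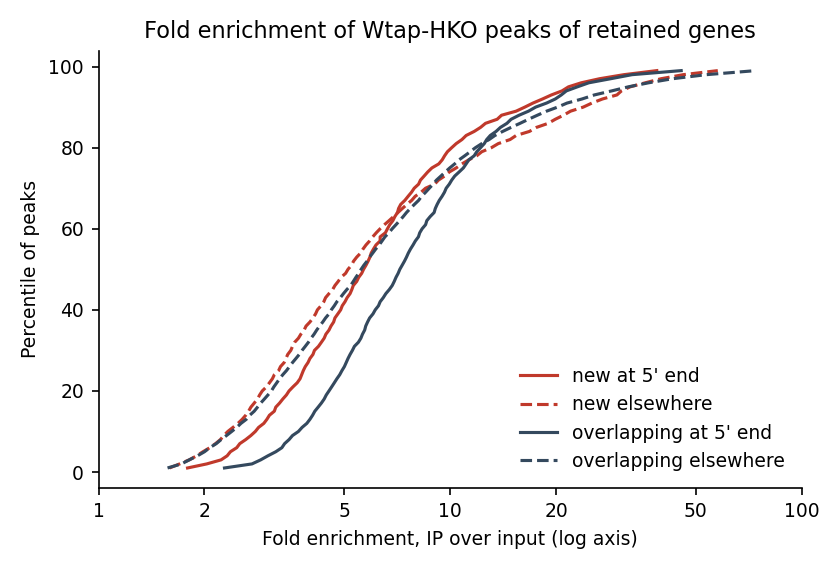
Percentile of peaks (y axis) against fold enrichment of IP over input (x axis, log scale) for Wtap-HKO peaks of retained genes, new (red) or overlapping a control peak (dark), at the 5′ end (solid) or elsewhere (dashed). The medians were 5.67 and 5.12 for new peaks at the 5′ end and elsewhere, and 7.19 and 5.58 for overlapping peaks.

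The strongest new peaks lay mainly away from gene starts, as did new peaks as a whole (28.5% within 200 nt of the 5′ end). Among new peaks at a false discovery rate under 1e-05, the 10 with the highest fold enrichment, 1 per gene, ran from 70.5 to 148. Mrvi1, a substrate of cGMP-dependent kinase that binds the inositol trisphosphate receptor, had a new peak of 148-fold (chr7:110871050-110871499) beside a control peak of 20.2-fold 2184 nt away. In Bcl2, an inhibitor of apoptosis, the new peak of 136-fold lay 298 nt from a control peak of 14.1-fold. Naip1, a sensor of the NLR inflammasome, had a new peak of 90.3-fold 149 nt from a control peak of 21.1-fold. In Tshz2, a zinc finger transcription factor, the nearest control block to the new peak of 75.9-fold was 183640 nt away. Others were in Pik3cg (104-fold), a phosphoinositide 3-kinase of leukocytes, Cd248 (97.6-fold), a stromal and pericyte surface protein, Flt1 (85.8-fold), a VEGF receptor of endothelium, and Ptger4 (73.2-fold), a prostaglandin E2 receptor. Only Prkch (92.1-fold, 30 nt) and Dusp7 (70.5-fold, 102 nt), a protein kinase C and a phosphatase of MAP kinases, had this peak within 200 nt of the gene start. The highest control peak of Prkch (119-fold) stood above its new peak, and that of Cd248 had 50.1-fold. In the others of these 10 genes the highest control peak ran from 13.5-fold in Tshz2 to 24.6-fold in Pik3cg. In Mrvi1 (176-fold) and Ptger4 (93.1-fold) the highest overlapping Wtap-HKO peak of the gene stood above the new peak. In the others of these 10 genes it stood below, from 9.21-fold in Flt1 to 91.2-fold in Cd248. Of 385 new peaks of 20-fold or more, 41.6% (36.7 to 46.5) had exactly the fold enrichment and false discovery rate of another new peak, against 15.2% (14.0 to 16.5) of those under 20-fold. The most common pair of values, 21.7-fold with a log10 false discovery rate of -4.77, occurred in 14 new peaks.

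Among the 10 new peaks at gene starts with the lowest false discovery rates, the 9 described here ran from 2.65- to 13.9-fold. Phlda3 had 6.57-fold (log10 false discovery rate -170), 1788 nt upstream of a control peak of 27.3-fold. Hint1, a histidine triad hydrolase, had 3.23-fold, Bdh1 7.47-fold, Cdc34, a ubiquitin-conjugating enzyme, 2.65-fold and Os9 4.03-fold. Atp1b3, a beta subunit of the sodium pump, had 5.21-fold 79 nt from its start, with its control peak of 3.92-fold 30443 nt downstream. Id1, an inhibitor of basic helix-loop-helix factors, had 13.9-fold at its start, and its control peak 504 nt away had 4.68-fold. In 4 of these genes (Bdh1, Os9, Nhp2 and Umps) at least 1 control peak was lost.

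The 5 genes with the most new peaks carried 8 or 9 each, and none of them lost a control peak. Col6a3, a chain of type VI collagen, had 2 control peaks and 11 Wtap-HKO peaks, 9 of them new, from 60 nt behind the gene start (5.06-fold) to 99.4% of the span (8.30-fold), with 57.8-fold as the highest. Mki67, the proliferation marker Ki-67, had 9 new peaks of 3.71- to 28.0-fold, all 5′ of its 2 control peaks. In Ttc28, a tetratricopeptide repeat protein, 8 of 9 new peaks lay 5′ of the control peaks, at 14.9- to 56.0-fold. In Stard9, a kinesin with a START domain, 6 of 8 lay between control peaks, at 5.78- to 29.8-fold. Tsc22d1, a leucine zipper protein, had 8 new peaks, all upstream of its single control peak, which had 7.28-fold.

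**Figure D4:**
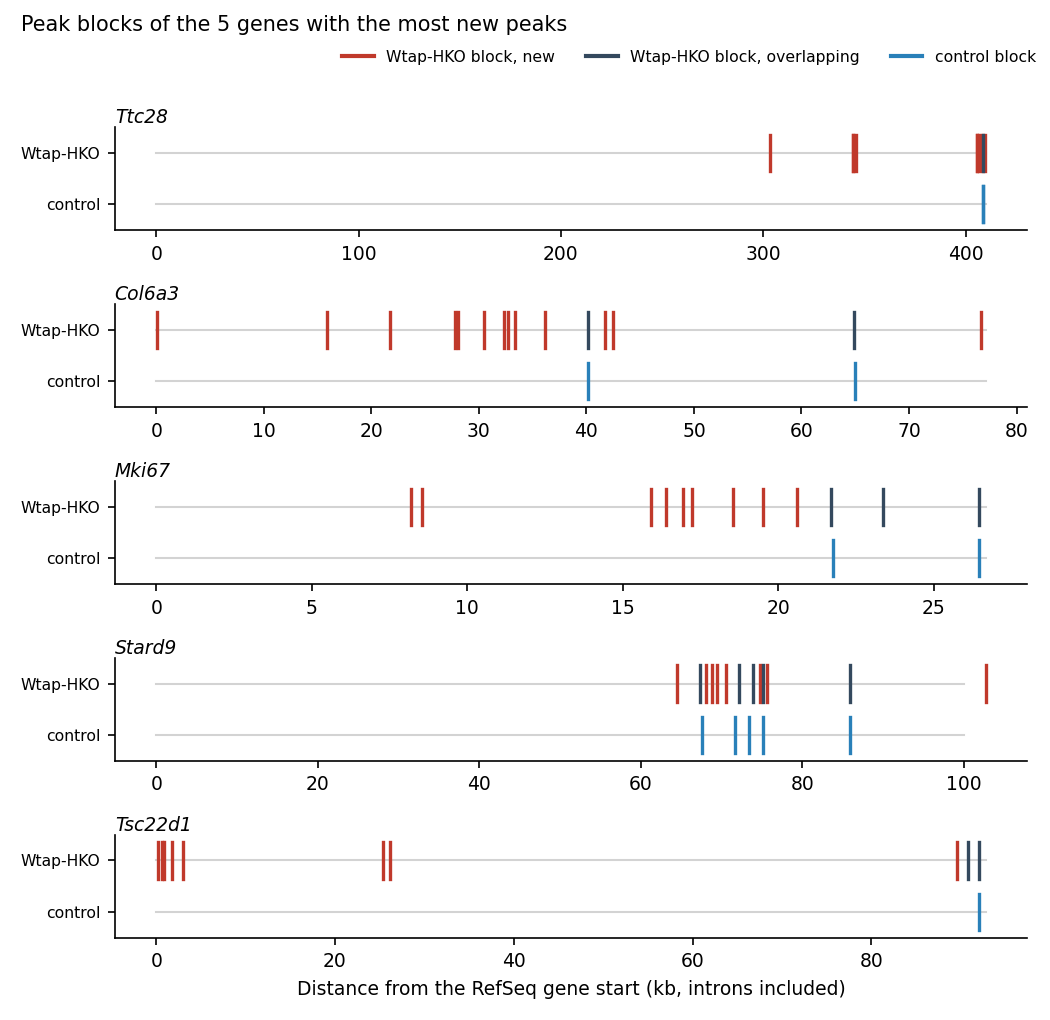
Exonic peak blocks along Ttc28, Col6a3, Mki67, Stard9 and Tsc22d1 (x axis, distance from the RefSeq gene start in kb, introns included, bars at block midpoints). The upper line of each gene holds Wtap-HKO blocks, new (red) or of peaks that overlap a control peak (dark), and the lower line control blocks (blue). New blocks lay upstream of all control blocks in Mki67 and Tsc22d1 and between them in much of Stard9.

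The genes of the m6A writers had 4 new peaks of 26 (15.4%, 6.15 to 33.5). Wtap had 3 control and 3 Wtap-HKO peaks and none was new, and peak calls give no mRNA level with which the deletion could be checked. The 4 new peaks were in 4 genes. Rbm15b had 10.4-fold, with its edge 54 nt upstream of the annotated start. Virma (4.49-fold) and Rbm15 (3.90-fold) had new peaks between control peaks, at 148 and 59 nt from the nearest control block. Pcif1, the cap m6Am methyltransferase, had 3.33-fold 85 nt from its start. Zc3h13 had no new peak and lost 2 of 5 control peaks. The m6A readers Ythdf1 (2.60-fold, 47 nt from the start) and Ythdf2 (3.28-fold, 162 nt) each had a new peak at the gene start. Igfbp1, Cd36 and Ccl2 had no control peak, so they were not retained genes and could hold no new peak under the rule. Cd36 and Ccl2 had 1 Wtap-HKO peak each, and Igfbp1 had none.

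Gene lists were described by their share of new peaks beside the 21.9% of all Wtap-HKO peaks of retained genes. The share uses the calls that define new peaks, and the lists were chosen with results of these data known, so the shares are a description. Counts at gene starts stand beside 28.5% of all placed new peaks and 13.2% of all placed overlapping peaks. Cytochrome P450 genes, which oxidise drugs and steroids, had 1 new peak of 36 (2.78%, 0.492 to 14.2), in Cyp2j5 (2.43-fold, 17 nt from the start). Urea cycle and amino acid genes had 2 of 36 (5.56%, 1.54 to 18.1), in Glul (3.31-fold) and Bckdha (2.46-fold), a subunit of the branched-chain keto acid dehydrogenase, and both were at gene starts. Plasma proteins had 6 of 69 (8.70%, 4.05 to 17.7), with 4 at the gene start. These were the coagulation factors F11 (6.13-fold) and F10 (5.76-fold), the serum amyloid A protein Saa4 (3.74-fold) and Hp (3.05-fold), the haemoglobin-binding haptoglobin. Overlapping peaks at gene starts numbered 13 in cytochrome P450 genes, 16 in urea cycle and amino acid genes and 23 in plasma proteins.

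Among genes of lipid and glucose handling, fatty acid oxidation had 3 new peaks of 26 (11.5%), in Bdh1 (7.47-fold), Ppara (3.08-fold), the lipid-sensing nuclear receptor, and Acads (2.36-fold), an acyl-CoA dehydrogenase. Lipogenesis had 2 of 18 (11.1%), in Acaca (5.29-fold), which makes malonyl-CoA, and Mlxipl (4.26-fold), the carbohydrate response factor ChREBP. Fatty acid uptake and lipid droplets had 3 of 23 (13%), in Slc27a4 (9.53-fold), Pparg (3.19-fold) and the lipase gene Pnpla2 (1.45-fold). Cholesterol and bile acid genes had 6 of 30 (20%), 4 of them at gene starts, among them Abca1 (7.68-fold), the cholesterol exporter. Overlapping peaks of these genes at gene starts numbered 6. Glucose handling had 5 of 30 (16.7%), with Foxo1 (16.3-fold, 59 nt from the start), a transcription factor restrained by insulin, and Creb1 (9.34-fold). Insulin and IGF signalling had 11 of 65 (16.9%), including Akt2 (10.7-fold, 120 nt from the start) and Grb10 (9.03-fold). Apolipoprotein and lipoprotein assembly genes had 6 of 27 (22.2%), and 3 of these were in Apobr, a receptor for apolipoprotein B. Nuclear receptors and liver transcription factors had 15 of 93 (16.1%), with Rora (21.7-fold), Onecut2 (13.1-fold) and Nr1d2 (5.56-fold, 39 nt from the start).

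In lists of stress and signalling genes, the shares ran from 15.2% for clock genes to 38.8% for the cell cycle and p53 list. All 5 new peaks of the unfolded protein response (of 31, 16.1%) were at gene starts, in Herpud1 (6.69-fold), Ddit3 (5.94-fold), the transcription factor CHOP, Trib3 (4.53-fold), Pdia4 (4.42-fold) and the chaperone gene Hspa5 (1.48-fold). Overlapping peaks of this list at gene starts also numbered 5. Immediate early genes had 10 of 36 (27.8%, 15.8 to 44.0), led by Klf4 (28.0-fold), Fosl2 (18.1-fold) and Klf2 (14.2-fold), all transcription factors. The interferon list had 17 of 56 (30.4%, 19.9 to 43.3), with Oasl2 (21.7-fold), Gbp7 (13.9-fold, 6 nt from the start) and 3 peaks in Irf9 (3.54- to 11.7-fold), a subunit of the interferon response factor ISGF3. NF-kB and inflammation had 14 of 64 (21.9%), 3 of them in the endotoxin receptor gene Tlr4. The cell cycle and p53 list had 19 of 49 (38.8%, 26.4 to 52.8), of which Mki67 held 9. Without Mki67 it had 10 of 38 (26.3%, 15 to 42.0), among them Bcl2 with 4 and Ccnd2 (32.2-fold), a G1 cyclin. Clock genes had 5 of 33 (15.2%), 3 of them in the kinase gene Csnk1e, and the iron list had 5 of 24 (20.8%).

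Lists of transporters and of RNA and chromatin proteins had shares between 11.1% and 22.2%. Zfp zinc finger genes had 118 of 620 (19.0%, 16.1 to 22.3), led by Zfp652 (39.8-fold), and 8 of the 113 that could be placed were at gene starts. Chromatin modifiers had 43 of 224 (19.2%, 14.6 to 24.9), including Arid5b (28.0-fold) and Smarcd3 (27.1-fold), and 7 of 41 were at gene starts. Solute carriers had 66 of 307 (21.5%, 17.3 to 26.4), with Slc12a2 (58.7-fold) the highest, and 22 of 64 were at gene starts. Overlapping peaks at gene starts numbered 9 in Zfp genes, 9 in chromatin modifiers and 41 in solute carriers. Translation factors had 12 of 55 (21.8%), splicing regulators 7 of 47 (14.9%), the respiratory chain 4 of 30 (13.3%), ribosomal proteins 2 of 9 (22.2%), and m6A readers and erasers 2 of 18 (11.1%).

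Markers of liver cells that keep Wtap in this model also carried new peaks. The endothelial list had 13 of 32 (40.6%, 25.5 to 57.7), in 10 of its 13 retained genes, from Lyve1 (2.67-fold) to Flt1 (85.8-fold) and including Kdr (10.2-fold), Cdh5 (13.6-fold) and Pecam1 (3.52- and 7.01-fold). The stellate cell and matrix list had 9 of 23 (39.1%, 22.2 to 59.2), including Pdgfra (4.90- and 9.45-fold), Col5a1 (6.36- and 7.90-fold), Col1a2 (5.37-fold) and Lrat (3.28-fold), the vitamin A esterase. Kupffer cell and leukocyte markers had 3 of 16 (18.8%, 6.59 to 43.0), in Csf1r (3.36-fold), Cd74 (1.86-fold) and Cd5l (1.34-fold). No control peak was lost in these lists, with 0 of 24 in the endothelial, 0 of 15 in the stellate and 0 of 15 in the Kupffer list. Of all control peaks of retained genes 13.9% were lost. A rough upper limit for a count of 0, taken as 3 divided by the number of peaks and not a Wilson interval, was 12.5%, 20% and 20%. The interferon list likewise lost 0 of 45 (up to 6.67%). In the other lists the lost share ran from 1.92% for NF-kB and inflammation (1 of 52) to 33.3% for fatty acid oxidation (11 of 33), with 30.3% for cholesterol and bile acids (10 of 33), 25% for fatty acid uptake and lipid droplets (6 of 24) and 24.3% for clock genes (9 of 37). Of the 7 hepatocyte markers Alb, Ttr, Apoa1, Apob, Cps1, Hnf4a and Serpina1a, 5 had a Wtap-HKO peak and Apoa1 alone had a new one. Of the 5 endothelial markers, Pecam1, Kdr, Lyve1 and Clec4g each had control and new peaks, and Stab2 had neither. Of the 7 Kupffer cell and leukocyte markers, 3 had a control peak, 6 a Wtap-HKO peak and 2 (Cd74 and Csf1r) a new one. Of the 5 stellate markers, 2 had a control peak, 4 a Wtap-HKO peak and 1 (Lrat) a new one. In bulk liver, more cells of a type and more RNA per cell cannot be told apart, and since input levels are not in the lists their part in these counts was not tested.

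**Figure D5:**
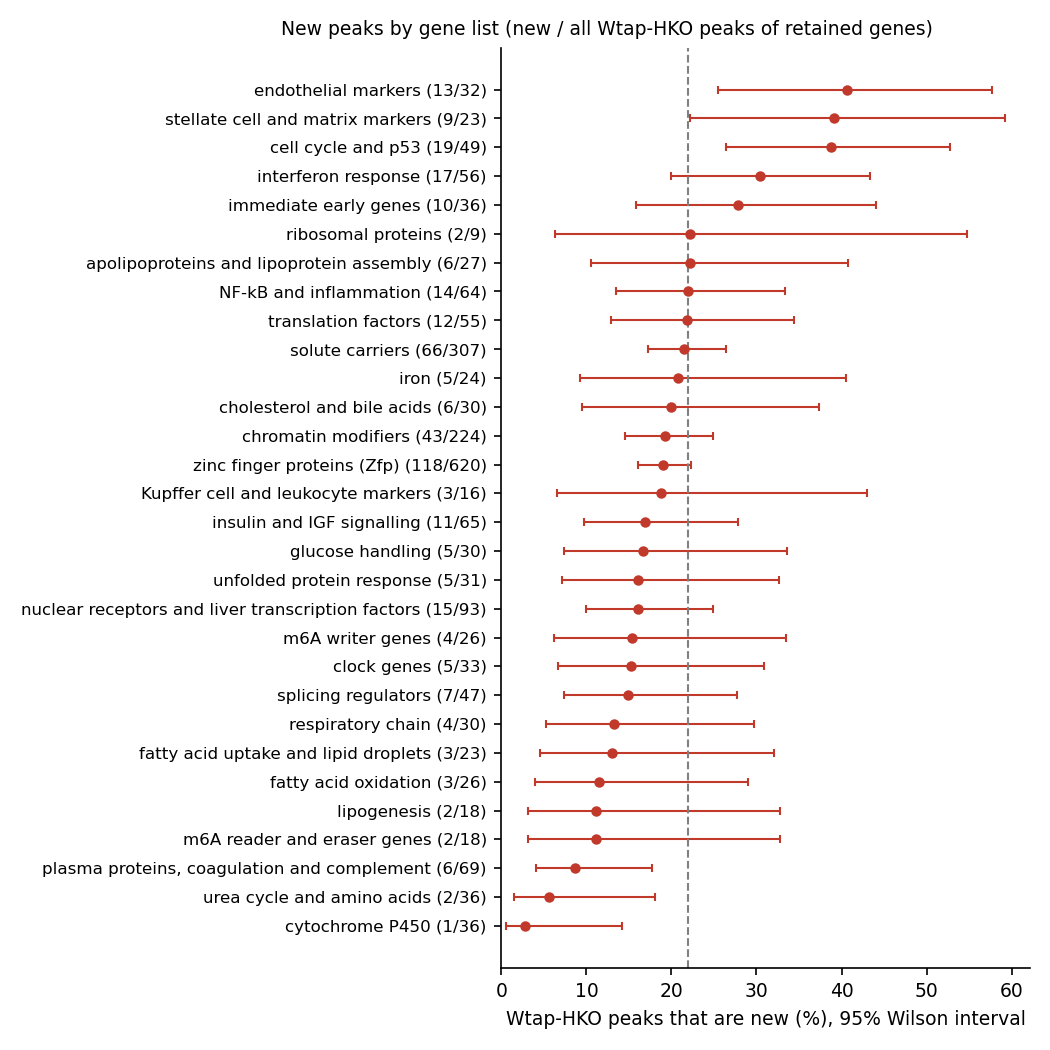
Share of Wtap-HKO peaks of retained genes that were new (x axis, percent) in 30 gene lists (y axis, with new and all peaks in brackets), with 95% Wilson intervals. The dashed line marks the 21.9% of all retained genes, and the lists ran from 2.78% for cytochrome P450 to 40.6% for endothelial markers.

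The letters at gene starts were compared between starts with a new peak, starts with an overlapping peak and all RefSeq starts. Of 2624 new peaks whose gene had a RefSeq start sequence, 962 lay within 200 nt of such a start, at 958 different starts. The first base was A at 31.3% of these (28.5 to 34.3), at 32.9% (30.6 to 35.4) of 1458 starts with an overlapping peak and at 34.4% of all 32817 starts. It was G at 46.6% (43.4 to 49.7), 44.1% and 35.6%. C before the start followed by A, the letters of a typical initiator, stood at 22.5% (20 to 25.3), 22.5% and 19.2%. GGAC on the transcript strand was found in the first 50 bases at 22.8% (20.2 to 25.5) of starts with a new peak, 19.5% with an overlapping peak and 18.8% of all starts, and GGACT, which contains GGAC, at 4.80%, 5.76% and 5.76%. For genes whose new peak lay over 1000 nt from the nearest start, the values were 29.3% for A, 44.5% for G, 19.0% for C followed by A, 19.9% for GGAC and 6.28% for GGACT. The median GC content of the first 50 bases was 68.0% with a new peak at the start, 66.0% with an overlapping one, 66.0% in genes with a new peak far from the start and 56.0% for all starts, so G and GC content were above those of all starts in each of the 3 sets. These letters describe the annotated starts and not the sites that were methylated.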

How the data were processed

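m6A RNA immunoprecipitation sequencing was measured in 2 IP and 2 input libraries per genotype. Per the labels and the study's methods, the authors aligned reads to GRCm38 with BWA and used exomePeak to find regions enriched in IP over input. The submitters' processing notes name fastp 0.19.11, BWA 0.7.12 and HOMER 4.9.1. Each peak list that the authors deposited gives fold enrichment, a linear ratio of IP over input, and log10 p-values and false discovery rates, used as a score. Replicates are combined by a rule that is not given in the sources used here. The remaining list, the authors' comparison of the genotypes (log2 fold change, p-value and false discovery rate), was not used, and 0 per-sample columns were left unassigned.

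Exonic blocks were compared with Python 3.11.15, pandas 2.3.3, numpy 2.4.6 and scipy 1.17.1, and figures were drawn with matplotlib 3.10.9. The code was tested on simulated data with planted overlaps and positions. Starts are printed 1-based. Peaks were placed on RefSeq gene spans (GRCm38.p6) matched by symbol, and 75.4% of new peaks matched a RefSeq start sequence. Shares carry 95% Wilson intervals, differences Newcombe intervals and medians order-statistic intervals. Upper limits for lost shares of 0 are 3 divided by the number of peaks. Peaks of a gene are not independent, and no test was possible with 1 list per genotype.

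The peaks and gene lists were chosen with earlier results of these data known. Patterns for Rpl, Rps, Zfp, Eif, Chd, Brd and Setd genes were narrowed after the members were seen. Named genes are the 10 new peaks with the highest fold enrichment at a false discovery rate under 1e-05, the 10 at gene starts with the lowest false discovery rate, the 5 genes with the most new peaks, up to 3 new peaks with the highest enrichment per list, and Wtap, Igfbp1, Cd36, Ccl2 and the writer genes. Further genes of short lists, the markers, the peaks at the limit of the rule and the genes of the printed sequences were named after their values were seen. Some genes that the rule names are not reported here. Genome sequence inside peaks and transcript models were not used here. Alternatives for overlap, distance, strand, false discovery rate, window, gene length and peaks per gene were tried.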

Additional observations from a re-analysis of the deposited data

How the results depend on the processing

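No paired analysis was possible because the deposited lists combine the replicates, and leaving out a replicate was not possible for the same reason. The difference between new and overlapping peaks at the 5′ end stayed above 0 in the alternatives given here, and the number of new peaks stayed between 3000 and 4781. Requiring less than 50% of exonic bases to be covered gave 30.1% new peaks of retained genes, 24.3% of them at the 5′ end and a difference to overlapping peaks of 11.1 points. With no control block within 200 nt, 20% were new and 69.5% lay 5′ of all control peaks. With a false discovery rate under 1e-05 in both lists, 20.5% were new, 30.8% at the 5′ end (difference 17.7), 68.4% 5′ of all control peaks, with a median of 5.53-fold and 181 nt. The share at the 5′ end was 23.3% with a 100 nt window (difference 12), 36% with 500 nt (19.8), 26.8% in genes over 5000 nt and 34.4% with 1 peak per gene (19.4). In genes with 1 control peak 76.7% were upstream. Chosen after seeing the data, any RefSeq start gave 36.7% (difference 20.5). Of 30 list shares, 26 stayed within their interval under the 50% rule (the others were endothelial 65.6%, solute carriers 27.7%, Zfp 26.6% and chromatin 25.4%), 29 under the stricter rate (chromatin 13.8%), and 28, chosen after seeing the data, without the gene with the most new peaks (cytochrome P450 0 and cell cycle 26.3%). Lists with a share above that of all retained genes numbered 7, and 8 and 10 under the 50% rule and the stricter rate, and single lists changed side. The unfolded protein response went from 16.1% to 22.6% (all genes 20.5%) under the stricter rate, apolipoproteins from 22.2% to 29.6% (all genes 30.1%) under the 50% rule and to 13% without the gene with the most new peaks, and ribosomal proteins from 22.2% to 14.3% without that gene. Without read totals, depth is unknown and a peak missing from the control list is not shown to be absent from control liver.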
